A study of Homo sapiens with 16 samples.

Results

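IP6K1, MTREX, AP5Z1, KAT5 and TASOR are 5 of the 3051 protein-coding genes, out of 20037 on chromosomes 1 to 22, X and Y, that held an INTS13 peak at a gene boundary after depletion of HDGF and none there in control cells. They were chosen by the measured −log10 q of these gained peaks, among the highest in the list, so the INTS13 peaks of control and HDGF-depleted cells serve only as a description. All samples were chromatin immunoprecipitations with sequencing (ChIP-seq) from HEK293T, an established human embryonic kidney line of wild-type genotype per the labels. INTS13 was precipitated after a control depletion, from cells treated for 72 h with a pool of small interfering RNAs against HDGF, and from cells kept for 24 h in medium without glucose. HDGF was precipitated from control-depleted and glucose-starved cells. Each of these 5 groups had 2 labelled replicates and 1 deposited peak list. No value below therefore has a replicate error and no test between conditions was possible. INTS13 was precipitated with a Bethyl antibody in control and HDGF-depleted cells and with a Proteintech antibody in starved cells, so antibody and starvation cannot be told apart. For both proteins the control cells were control-depleted, and the labels name no control depletion for the starved cells. Starvation and the absence of a control depletion therefore cannot be told apart either. The lists hold no expression values, so neither the cell line nor the loss of HDGF was checked here.

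INTS13 is a subunit of Integrator, a complex that binds RNA polymerase II and cleaves nascent RNA, both at snRNA genes and close to the start of protein-coding genes. HDGF is a chromatin protein with a PWWP domain, a fold that binds DNA and methylated histone tails. The 5 genes have separate roles. IP6K1 makes inositol pyrophosphates. MTREX is the RNA helicase that feeds transcripts to the nuclear exosome. AP5Z1 is a subunit of the AP-5 adaptor complex of late endosomes. KAT5 (TIP60) is the acetyltransferase of the NuA4/TIP60 complex. TASOR is the scaffold of the HUSH complex, which silences repeats and retroelements.

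After HDGF depletion the strongest INTS13 peak of each gene lay at the end where transcription begins. Fold here is the authors' enrichment at the peak summit over background, and −log10 q is the authors' adjusted significance of that peak in its own list. Distances run from the RefSeq gene boundary in the direction of transcription, negative values being upstream. At IP6K1 (chromosome 3, minus strand) the peak spanned chr3:49786659-49787217, with its summit at -298 bp, a fold of 5.58 and a −log10 q of 10.09. At MTREX (chromosome 5, plus strand) it spanned chr5:55307982-55308269, with the summit at 105 bp and the same fold of 5.58 and −log10 q of 10.09. A boundary of a long non-coding RNA, LOC124900979, lay 55 bp from the MTREX summit, nearer than that of MTREX itself. Both summits held 28 reads by the fold and the background of the list, which was 4.2 reads. The AP5Z1 peak (chromosome 7, plus strand) spanned chr7:4775541-4775768, with the summit at 37 bp, a fold of 5.39 and 27 reads. The KAT5 peak (chromosome 11, plus strand) spanned chr11:65711852-65712188, with the summit at -19 bp from the gene boundary, a fold of 5.20 and 26 reads. The TASOR peak (chromosome 3, minus strand) spanned chr3:56682413-56682648, with the summit at 740 bp, inside the gene, and the same fold of 5.20 and 26 reads. The near heights of the 5 peaks follow from the choice of genes by −log10 q. In place, the TASOR summit was the farthest from its gene start.

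RefSeq promoter windows (GRCh38.p14, from 250 bases before to 50 bases after a start site) were used to show the bases under these peaks. All 5 genes had at least 1 window, and in 4 genes a window reached into the gained peak. These 4 are printed 5′ to 3′ on the strand of the gene, with the bases inside the INTS13 peak of HDGF-depleted cells in capitals. They are IP6K1 (chr3:49786493-49786792, minus strand, 134 bases in the peak), MTREX (chr5:55307739-55308038, plus strand, 57 bases), AP5Z1 (chr7:4775373-4775672, plus strand, 132 bases) and KAT5 (chr11:65712002-65712301, plus strand, 187 bases).
IP6K1: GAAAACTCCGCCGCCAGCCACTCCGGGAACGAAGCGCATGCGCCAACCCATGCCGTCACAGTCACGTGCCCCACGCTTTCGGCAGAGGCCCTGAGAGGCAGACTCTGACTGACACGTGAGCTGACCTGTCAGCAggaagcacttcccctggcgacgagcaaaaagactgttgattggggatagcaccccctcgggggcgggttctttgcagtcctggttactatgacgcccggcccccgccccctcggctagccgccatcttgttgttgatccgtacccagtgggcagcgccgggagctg
MTREX: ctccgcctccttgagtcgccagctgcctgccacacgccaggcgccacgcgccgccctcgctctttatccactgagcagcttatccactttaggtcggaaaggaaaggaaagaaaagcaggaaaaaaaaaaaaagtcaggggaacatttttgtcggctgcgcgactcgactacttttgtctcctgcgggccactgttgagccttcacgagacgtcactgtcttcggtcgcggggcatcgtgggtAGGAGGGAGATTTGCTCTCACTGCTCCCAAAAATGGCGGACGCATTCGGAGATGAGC
AP5Z1: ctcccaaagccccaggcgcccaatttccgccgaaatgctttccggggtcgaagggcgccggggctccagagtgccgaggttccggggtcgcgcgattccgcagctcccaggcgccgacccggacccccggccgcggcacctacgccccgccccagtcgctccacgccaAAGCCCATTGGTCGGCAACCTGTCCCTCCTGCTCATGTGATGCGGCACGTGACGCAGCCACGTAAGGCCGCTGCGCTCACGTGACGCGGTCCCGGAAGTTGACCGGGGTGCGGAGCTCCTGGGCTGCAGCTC
KAT5: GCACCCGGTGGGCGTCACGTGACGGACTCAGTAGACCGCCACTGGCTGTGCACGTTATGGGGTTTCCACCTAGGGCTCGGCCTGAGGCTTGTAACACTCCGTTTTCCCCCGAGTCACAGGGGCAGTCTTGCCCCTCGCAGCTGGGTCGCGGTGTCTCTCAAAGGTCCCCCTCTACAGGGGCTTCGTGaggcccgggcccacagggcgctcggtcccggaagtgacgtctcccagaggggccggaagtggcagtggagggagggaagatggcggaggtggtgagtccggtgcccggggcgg

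In IP6K1 the peak covered the upstream part of the window, and in MTREX and AP5Z1 the part around the start site. In KAT5 it covered the upstream part of a window whose start site lies farther into the gene than the gene boundary, 253 bp from the summit. The summit itself fell inside the printed window only in AP5Z1, at base 288 of 300. None of the 3 TASOR windows touched the TASOR peak. The share of G and C in the window was 63.7% in IP6K1, 56.0% in MTREX, 70.7% in AP5Z1 and 67.3% in KAT5, against a median of 62.3% over the 22199 windows of protein-coding genes.

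Exact matches to 9 short motifs were looked for on both strands of all windows, and no match of one motif overlapped a match of another in the 5 genes. The E-box CACGTG, added to the search after the windows had been read, occurred in IP6K1, AP5Z1 and KAT5, and in 8.34% of all windows. Each of its 5 matches in these genes (2 in IP6K1, 2 in AP5Z1 and 1 in KAT5) lay under the INTS13 peak. Because the E-box was picked from these windows, neither its presence nor its place in them can be weighed against that share. The ETS-type motif CCGGAAGT occurred in AP5Z1, under the peak, and at 2 places in KAT5 outside it, against 5.34% of windows. The NRF1 motif lay under the peak in IP6K1 and occurs in 1.5% of windows. The YY1 motif occurred in IP6K1 outside the peak and in 1.18% of windows. GGGCGG was present in windows of all 5 genes and in 56.3% of all windows. None of its matches lay in the parts of the peaks that the windows covered, and no window covered the TASOR peak. CCAAT was present in IP6K1, AP5Z1 and TASOR and in 34.7% of windows. TATAAA was found only in the third TASOR window and in 9.47% of all windows. The ZNF143 motif and TGACGTCA had no match in the windows of the 5 genes and occurred in 0.306% and 2.26% of all windows. A match is a description of the letters and does not show that a factor binds there.

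**Figure D1:**
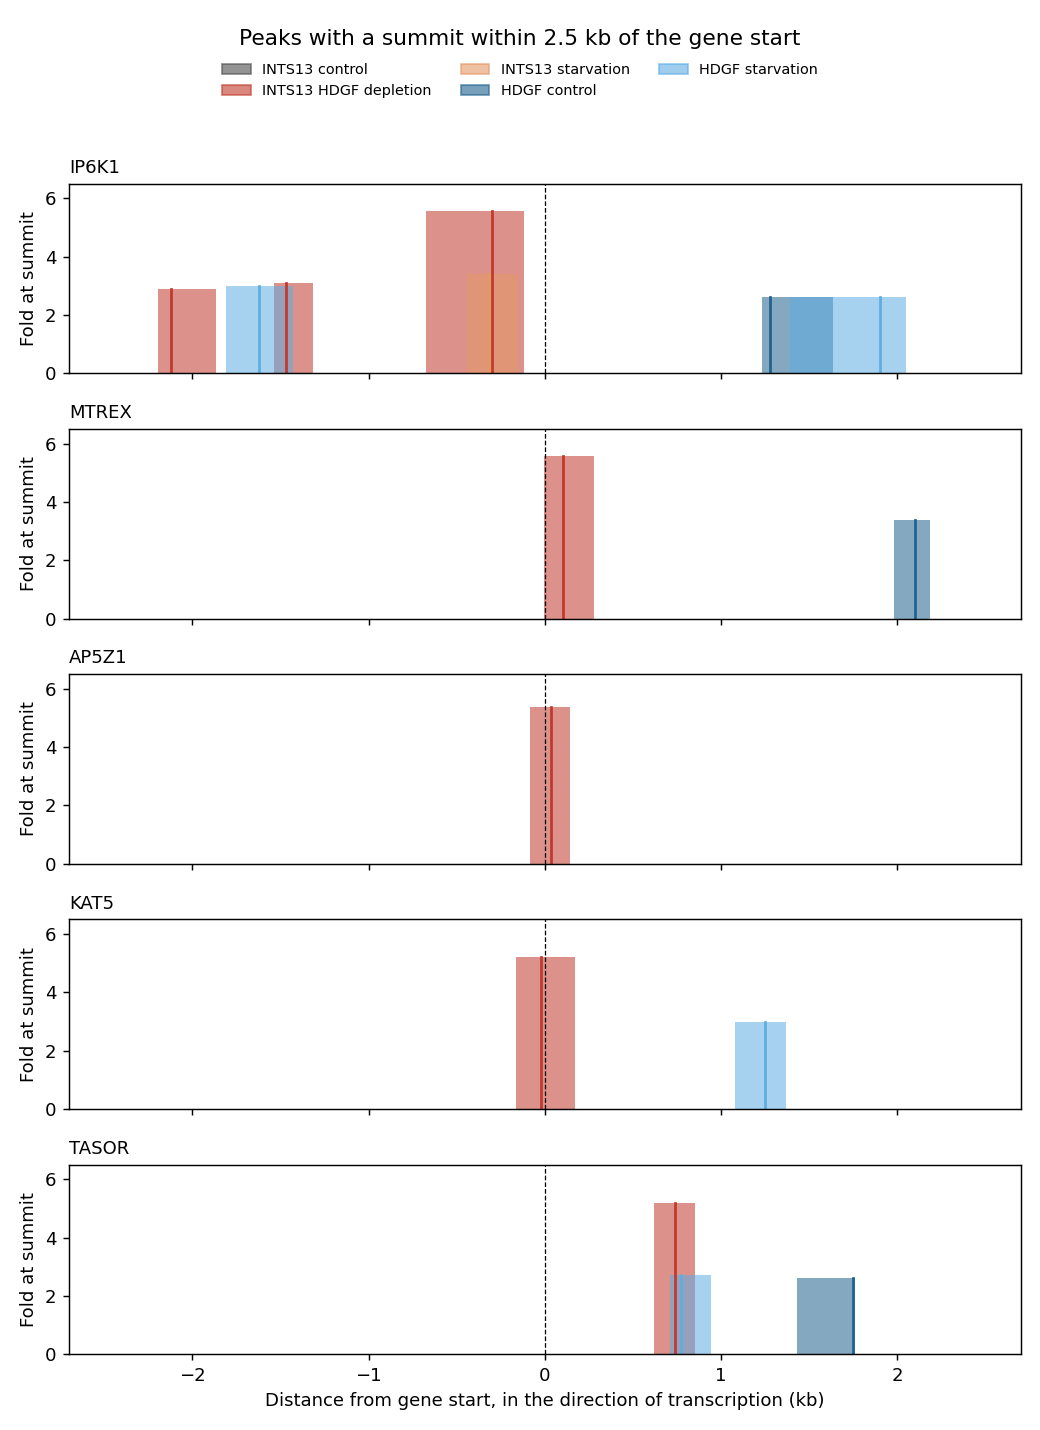
Peaks with a summit within 2.5 kb of the start of each gene, coloured by list. The x axis is the distance from the gene start in kb, in the direction of transcription, bars span each peak and rise from 0 to its fold at the summit, and the vertical line in each bar is the summit. INTS13 after HDGF depletion reaches folds of 5.20 to 5.58 at all 5 genes, and no INTS13 control peak is present. Where HDGF peaks are present in this range, they lie to the side of the strongest INTS13 peak except in starved cells at TASOR. In this range AP5Z1 has no HDGF peak, KAT5 has HDGF in starved cells only and MTREX in control cells only.

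Gained is a statement about lists of unequal length and depth. The depletion list held 105994 peaks on these chromosomes and the INTS13 control list 31233, and 15.2% of all protein-coding genes gained a boundary peak (a summit within 1 kb of either gene end). The lowest listed summit held 17 reads in the control list, over a background of 6.4, and 12 reads in the depletion list. A summit below that level in control cells would not have been listed, so absence means below the level of detection. Among the gained genes MTREX and IP6K1 had the highest −log10 q, together with DHX29, whose start lies 295 bp from that of MTREX on the other strand and which holds the same peak. AP5Z1 followed with a −log10 q of 9.30, tied with RPS6KB1 and TUBD1, which also share a single peak. KAT5 and TASOR had 8.54, as did CEBPA, PSG5 and TRIM62. The genes next below, at a fold of 5.00 and a −log10 q of 7.81, were AK5, CACHD1, CD2BP2, IRF2BP2, PLAU and ZC3HAV1L. In the whole depletion list the peaks of IP6K1 and MTREX were tied at rank 390 by p (the top 0.368%), that of AP5Z1 at 496 and those of KAT5 and TASOR at 686.

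**Figure D2:**
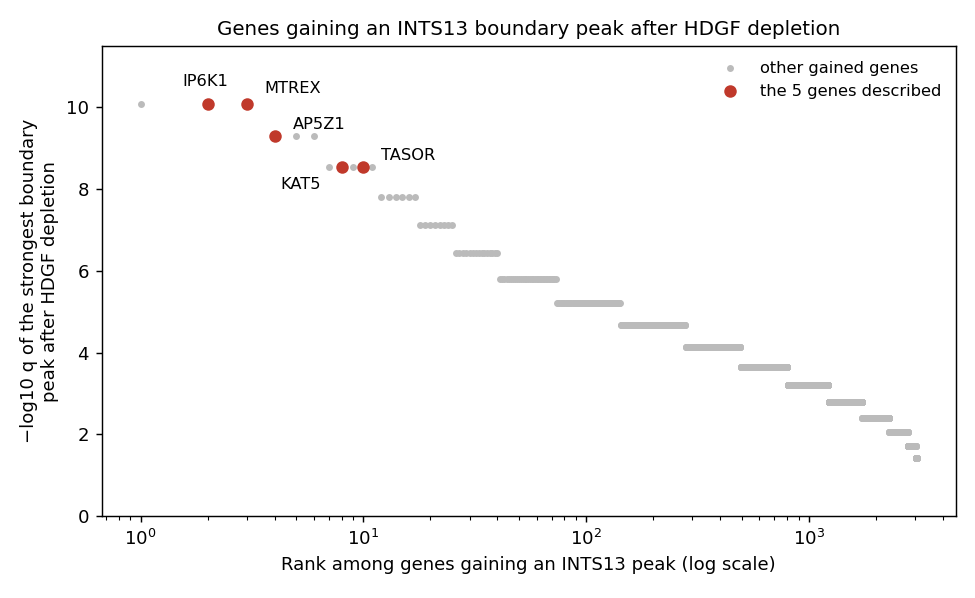
Each point is 1 of the 3051 genes that gained an INTS13 boundary peak, with its rank on a log x axis (ties in alphabetical order) and the −log10 q of its strongest boundary peak in the depletion list on the y axis. The 5 genes described, in red, lie between 8.54 and 10.09, and the points form steps because reads at the summit are whole numbers.

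A peak at either gene end made a gene count as gained. The −log10 q alone does not single out these 5. DHX29, RPS6KB1, TUBD1, CEBPA, PSG5 and TRIM62 had values at least as high as those of KAT5 and TASOR. Of these, PSG5 and TRIM62 had the peak nearer the far end and the others nearer the start. What else set the 5 apart is not stated, so the start position cannot be taken as separate from the choice. Of the 2518 gained genes with a strand in the promoter table, 1407 had their strongest gained peak nearer the start (55.9%), and in 418 it lay within 300 bp of the start (16.6%). Among the 24 gained genes with a strand and a −log10 q of at least 7, 18 had it nearer the start (75%) and 12 within 300 bp (50%). In the 5 genes the counts were 5 nearer the start and 4 within 300 bp. These 5 belong to those 24 strongest genes, so the counts are not separate, and 5 genes are too few to set them apart from the rest.

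The chromosomes of the 5 genes had few INTS13 peaks in control cells, as did most others. Chromosomes 1, 13 and X held 76.2% of the INTS13 control peaks, and each of the other 20 (Y left out) had 47 to 1007. Chromosomes 3, 5, 7 and 11 hold 21.0% of protein-coding genes but 4.67% of the INTS13 control peaks, 1459 in all, and 14.4% of the peaks after HDGF depletion, 15242 in all. Chromosome 11, with KAT5, had 47 INTS13 peaks in control cells and 1458 after depletion. Chromosome 3, with IP6K1 and TASOR, went from 267 to 5752, chromosome 5, with MTREX, from 313 to 3292, and chromosome 7, with AP5Z1, from 832 to 4740. Over all chromosomes the depletion list was 3.39 times as long as the control list, a ratio held down by those 3 chromosomes, and the median over the 23 chromosomes was 10.5. The ratio was 31.0 on chromosome 11, 21.5 on chromosome 3, 10.5 on chromosome 5 and 5.70 on chromosome 7. It ran from 2.93 to 27.1, with a median of 11.4, on the 16 chromosomes other than these 4 and chromosomes 1, 13 and X. The chromosomes of the 5 genes thus did not stand apart as a group. The share of genes that gained a boundary peak was 21.7% on chromosome 3, 15.3% on chromosome 5, 14.6% on chromosome 7 and 9.61% on chromosome 11, near or below the 15.2% of all genes except on chromosome 3. The part of this chromosome pattern in the 5 gains was not tested.

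**Figure D3:**
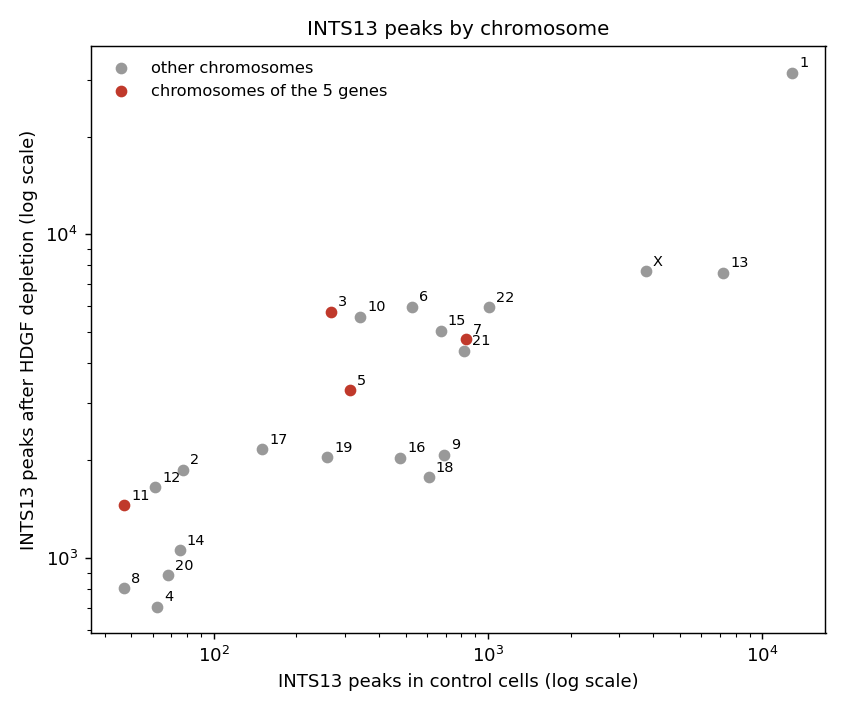
Each point is a chromosome (Y left out), with its INTS13 peaks in control cells on the x axis and after HDGF depletion on the y axis, both on log scales. Chromosomes 3, 5, 7 and 11, in red, have 47 to 832 peaks in control cells and lie among the other 16, which have 47 to 1007, while chromosomes 1, 13 and X have 12852, 7198 and 3757.

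INTS13 was also scored over the whole of each gene and 2.5 kb on either side. In control cells 4 of the 5 genes had no INTS13 peak there and IP6K1 had 2, against a peak at 13.2% of all protein-coding genes. With genes grouped into classes by length, this share ran from 9.78% in the class of KAT5 to 19.3% in that of MTREX. Both IP6K1 peaks had a fold of 2.84 and a −log10 q of 2.45. They lay 1353 and 2131 bp beyond the far end of the gene, within the neighbouring gene GMPPB, whose nearer boundary is 343 bp from IP6K1. The nearest INTS13 control summit to the gained peak was 68.2 kb away at KAT5, 348 kb at TASOR, 1438363 bp at AP5Z1 and 5287196 bp at MTREX.

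After HDGF depletion the number of INTS13 peaks differed widely between the genes. MTREX, AP5Z1 and KAT5 held the start peak alone, in genes of 117.6, 18.8 and 7.6 kb. TASOR held a second, weak peak (fold 2.89) 928 bp inside its far end. IP6K1 held 22 peaks along 62.2 kb, with folds of 2.5 to 5.58 and a median of 3.27. Its second strongest, with a fold of 4.62 and a −log10 q of 6.44, lay 13108 bp into the gene. Per 10 kb, IP6K1 had 3.27 INTS13 peaks, KAT5 0.794, AP5Z1 0.421, TASOR 0.294 and MTREX 0.0816, against 0.469 over all protein-coding genes. A density at least as high as that of IP6K1 was found at 5.40% of genes, and at least as high as that of MTREX at 48.4%. The surroundings of IP6K1 were dense as well, with 66 INTS13 summits over the gene and 100 kb on either side (252 per Mb), against a median of 22.8 per Mb for all genes. The same count was 24 at TASOR, 8 at KAT5, 4 at MTREX and 3 at AP5Z1. Some INTS13 peak over the gene or its flanks was present in 51.2% of all protein-coding genes after depletion. By length class this share was 61.1% for IP6K1 and TASOR, 67.4% for MTREX, 54.7% for AP5Z1 and 44.0% for KAT5. Of the 22 IP6K1 peaks 4 overlapped an HDGF peak of control cells, and of all peaks in the depletion list 25.8% did.

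The INTS13 list of glucose-starved cells, made with another antibody, had no part in the choice of the genes. IP6K1 alone of the 5 genes held an INTS13 peak over the gene or its flanks in starved cells. Such a peak was present in 11.6% of all protein-coding genes and in 14.1% of the length class of IP6K1. The IP6K1 peak had a fold of 3.41, a −log10 q of 4.53 and 57 reads at the summit over a background of 15.2. Its summit, at -314 bp, was 16 bp from that of the depleted cells, and all 293 bases of the starvation peak lay within the depletion peak. IP6K1 thus gained a boundary peak in starvation too, as did 4.16% of all protein-coding genes. Among all genes gained in depletion, the depletion peak overlapped a starvation peak of INTS13 in 6.19%. The share was 19.7% at a −log10 q of at least 5 and 36.0% (9 of 25) at 7 or more, so 1 of the 5 is not above the share among the strongest gains. The nearest INTS13 starvation summit was 44.9 kb from the gained summit at AP5Z1, 207 kb at KAT5, 874 kb at TASOR and 5641185 bp at MTREX. The starvation list is the shortest, with 15639 peaks, and its lowest listed summit held 40 reads.

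**Figure D4:**
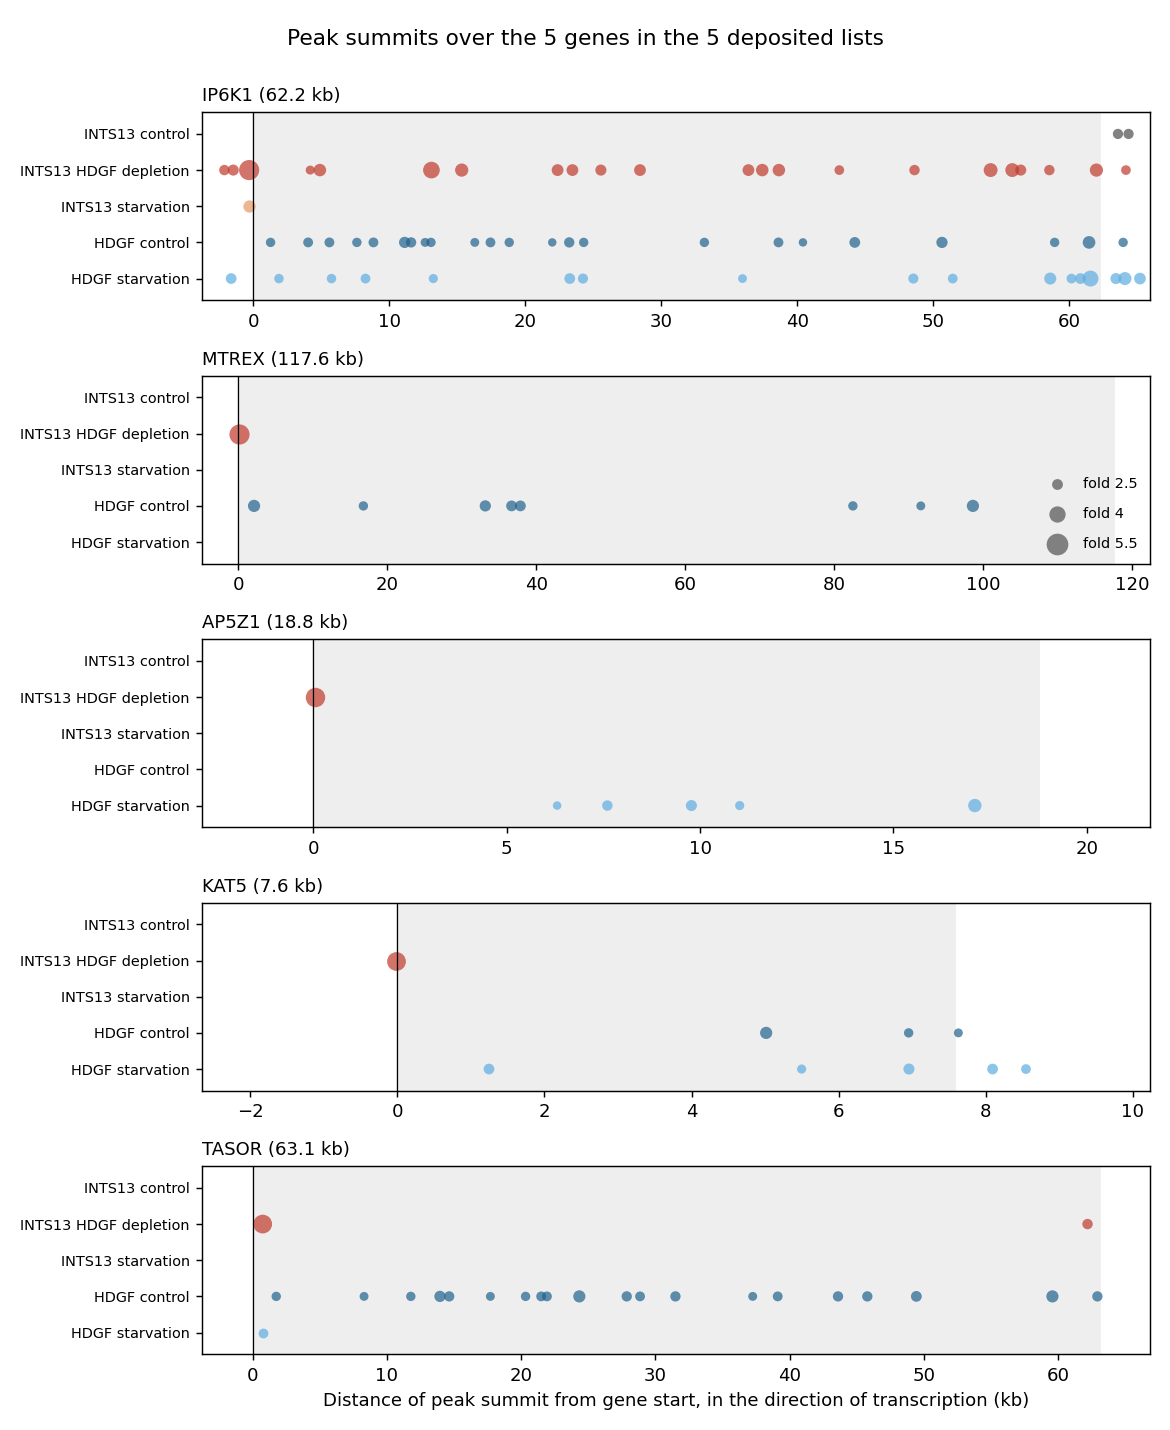
Summits of all peaks over each gene and 2.5 kb on either side, 1 row per list, with the distance from the gene start in kb on the x axis, the gene body in grey and the area of each point growing with fold. INTS13 after HDGF depletion is a single point at the start of MTREX, AP5Z1 and KAT5, 2 points at TASOR and 22 points along IP6K1. HDGF points run along IP6K1 in both lists and along TASOR and MTREX in control cells. In starved cells TASOR has 1 HDGF point, near its start, and MTREX has no point. At KAT5 most HDGF points lie nearer the far end, and AP5Z1 has them in starved cells only.

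HDGF in control cells had peaks over 4 of the 5 genes, and none overlapped the strongest INTS13 peak found after depletion. IP6K1 had 23 HDGF peaks, TASOR 20, MTREX 8, KAT5 3 and AP5Z1 0, and 49.7% of all protein-coding genes had at least 1. By length class this share was 59.5% for IP6K1 and TASOR, 60.2% for MTREX, 54.0% for AP5Z1 and 44.4% for KAT5. The folds ran from 2.34 to 3.51 in IP6K1, from 2.47 to 3.38 in TASOR, MTREX and KAT5. Per 10 kb these were 3.42 peaks in IP6K1, 2.94 in TASOR, 2.38 in KAT5 and 0.653 in MTREX, against 0.612 over all protein-coding genes. A density at least as high was found at 8.78% of genes for IP6K1, 10.6% for TASOR, 13.4% for KAT5 and 32.0% for MTREX. The strongest HDGF peak of IP6K1 (fold 3.51) lay 61473 bp from the start, close to the far end. In KAT5 all 3 summits were nearer the far end, which RNASEH2C overlaps, and the strongest (3.38) lay 5014 bp from the start. In TASOR the peaks were spread from 1749 to 62939 bp.

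At the start itself, 3 of the 5 genes had an HDGF control summit within 2.5 kb, against 30.5% of the 15843 genes with a known strand and 55.3% of the gained genes among them. These were IP6K1 at 1278 bp (fold 2.60), TASOR at 1749 bp (2.60) and MTREX at 2098 bp (3.38). None lay within 1 kb of the start, and none of the 5 start peaks of INTS13 overlapped an HDGF control peak. Among all gained genes the strongest gained peak overlapped one in 15.1%, and in 7 of the 25 with a −log10 q of at least 7. With 5 genes, 0 does not set them apart. By the boundary rule IP6K1 and TASOR each gained a weaker peak at the far end too, which makes 7 gained boundary peaks in the 5 genes. The far-end peak of IP6K1 is also the gained start peak of its neighbour GMPPB, at -575 bp. The far-end peak of TASOR lies within CCDC66, which overlaps that end of TASOR. The far-end peak of TASOR shared 59 bases with an HDGF control peak, and it alone of the 7 overlapped one. From the gained INTS13 summit to the nearest HDGF control summit the distance was 1009 bp at TASOR, 1576 bp at IP6K1, 1993 bp at MTREX, 5033 bp at KAT5 and 21036 bp at AP5Z1, and the median was 2309 bp over all gained genes and 1576 bp over the 25 strongest. The distance was below the median of all gained genes at 3 of the 5. Against the median of the 25 strongest it was below only at TASOR, equal at IP6K1 and above at MTREX, KAT5 and AP5Z1.

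Counts of listed HDGF peaks in starved cells, set beside those in control-depleted cells, differed in direction between the 5 genes. TASOR went from 20 peaks in control cells to 1, MTREX from 8 to 0 and IP6K1 from 23 to 17, whereas AP5Z1 went from 0 to 5 and KAT5 from 3 to 5. The HDGF control list held 106674 peaks, with 16 reads at its lowest listed summit, and the starvation list 68138, with 24 reads. The counts therefore depend on list length and depth, and absence again means below the level of detection. In these lists 41.1% of all protein-coding genes had an HDGF peak in starvation, and the density over all genes was 0.383 peaks per 10 kb against 0.612 in control cells. Of the 955 genes with at least 20 HDGF peaks in control cells, 132 had at most 1 in starvation (13.8%), and of the 2720 with at least 8, 530 had none (19.5%). Of the 10082 genes with none in control cells, 321 had at least 5 in starvation (3.18%). These limits were set by the counts of TASOR, MTREX and AP5Z1 and so describe how common such counts are. The regions around 4 of the genes differed in the same direction. Over the gene and 100 kb on either side, HDGF summits went from 40 to 4 at TASOR, from 17 to 0 at MTREX, from 35 to 99 at IP6K1, from 5 to 13 at AP5Z1 and from 13 to 30 at KAT5. IP6K1 is the exception, with fewer peaks over the gene and more around it.

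The strongest HDGF peak of starved cells in the 5 genes was at the far end of IP6K1, with a fold of 4.42, a −log10 q of 9.80 and its summit 668 bp inside that end. The AP5Z1 peaks lay between 6303 and 17107 bp from the start, with folds of 2.36 to 3.70. In KAT5 the folds were 2.54 to 3.07, and 4 of the 5 summits lay within 2.5 kb of the far end. By the boundary rule IP6K1, KAT5 and TASOR kept HDGF in starvation, which 10.1% of all protein-coding genes and 26.2% of the gained genes did. At TASOR the control summit lay 194 bp from the far end and the starvation summit 773 bp from the start, so only the gene was kept and not the place.

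At the start, 3 of the 5 genes had an HDGF starvation summit within 2.5 kb, against 22.5% of genes with a known strand and 46.7% of the gained genes among them. These were TASOR at 773 bp (fold 2.72), KAT5 at 1246 bp (2.98) and IP6K1 at -1621 bp (2.98) and 1895 bp (2.63). The TASOR summit was 33 bp from the INTS13 summit of depleted cells, and the peaks shared 144 bases. The HDGF peak had 29 reads at its summit over a background of 9.84. The weaker far-end boundary peak of IP6K1 (fold 3.66, summit 232 bp inside that end) lay wholly under an HDGF starvation peak, and the other 5 gained boundary peaks overlapped none. The strongest gained peak overlapped HDGF of starved cells in 18.2% of all gained genes and in 36.0% of those with a −log10 q of at least 7.

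**Figure D5:**
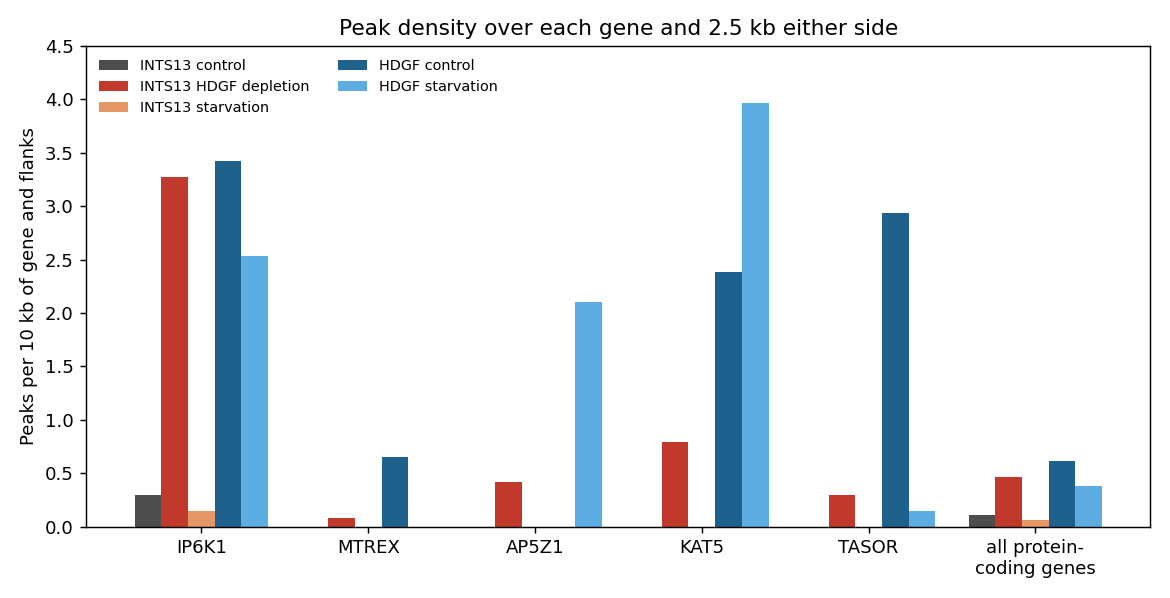
Bars give peaks per 10 kb of the gene and 2.5 kb on either side, by list, for the 5 genes and over all protein-coding genes. IP6K1 is above the value for all genes in every list, MTREX has HDGF in control cells only, AP5Z1 has HDGF in starved cells only, and TASOR drops from 2.94 to 0.147 for HDGF.

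Genes that act with the 5 were counted from lists of complex and pathway members, leaving out the 5 themselves. Of 92 such genes, 17 gained an INTS13 boundary peak after HDGF depletion (18.5%), 4 kept one and 0 lost one. These shares are near those over all protein-coding genes, of which 15.2% gained, 3.88% kept and 0.893% lost such a peak. For the nuclear exosome and its adaptors, the partners of MTREX, 3 of 29 gained a peak. They were ZCCHC8 (fold 4.04), the scaffold of the nuclear exosome targeting complex, and EXOSC2 and EXOSC7 (2.89 each), core subunits. The kept genes were NVL, with a fold of 3.78 in control cells and 5.39 after depletion, RBM26 (3.65 and 3.66) and DIS3, a nuclease of the exosome (3.51 and 3.08). Folds from separate lists are set side by side and are not compared.

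In the TIP60 complex of KAT5, 6 of 18 genes gained a peak. None had one in control cells, where 4.77% of all protein-coding genes did. The gained genes were MORF4L2 (3.85), ACTB, VPS72 and MORF4L1 (3.46 each), YEATS4 (3.27) and BRD8 (3.08). MORF4L2 was the only one with INTS13 in starvation (fold 3.18). Among adaptor complex genes, 6 of 21 gained a peak, none of them another AP-5 gene. They were AP3B1 and AP3S1 (4.04 each), AP1B1 and AP2S1 (3.66 each) and AP2A1 and AP4M1 (3.46 each).

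For the HUSH complex of TASOR, 1 of 9 genes gained a peak, SETDB1 (3.66), the H3K9 methyltransferase that acts with HUSH. Of the 15 other genes of inositol phosphates and pyrophosphates, IPPK gained a peak (2.69) and ITPKB kept one (3.65 in control cells and 4.04 after depletion). IP6K2 and IP6K3, the paralogs of IP6K1, had no INTS13 boundary peak in either list.

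Genes most like each of the 5 were found by the strongest fold within 2.5 kb of either gene end in the 5 lists, taken as 0 where there was no peak, and by Euclidean distance over these 5 values. For MTREX the nearest was DHX29, at distance 0 because it shares the peaks. For IP6K1, the only gene of the 5 with a value in all lists, they were CD2BP2 (0.87) and SDC3 (0.91). AP5Z1, with values only for INTS13 after depletion (5.39) and HDGF in starvation (3.70), was nearest to RAB40B (0.68) and CFAP276 (0.77). KAT5 was nearest to CBR1 and TASOR (0.44 each), and TASOR to IFT56 (0.42) and CBR1 (0.43). KAT5 and TASOR had near values by this measure, with HDGF folds of 2.60 and 2.86 in control cells and 3.07 and 2.72 in starvation. Their equal INTS13 fold after depletion (5.20) follows from the choice of genes, and both lacked INTS13 values in control and starved cells. The measure leaves out the place and number of peaks, and any summit farther than 2.5 kb from both gene ends. The strongest HDGF control peak of KAT5 (fold 3.38) was left out in this way, with its summit 2572 bp from the far end. KAT5 and TASOR held 3 and 20 HDGF peaks in control cells and 5 and 1 in starvation. The starvation value came from the far end of KAT5 but from the start of TASOR.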

How the data were processed

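The authors deposited 1 narrowPeak list per ChIP group, on build hg38 per the submitters' processing notes, which name FastQC, Trimmomatic, Bowtie, Picard and MACS2. Versions, settings and the handling of replicates and inputs are not stated there, and the 6 inputs were not analysed here. For each peak the authors gave a summit, its fold (a ratio to background), its −log10 q, its −log10 p and an integer score. In every list 1 fold had 1 p, which gave a single background in reads per list and the reads at each summit. No local background was corrected for.

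Peaks were placed on RefSeq genes (GRCh38.p14) with pandas 2.3.3. A peak belonged to a gene when any base lay in it or within 2.5 kb, and a boundary peak had its summit within 1 kb of either end. Strand came from the promoter table, for 15843 of 20037 genes. Peak counting was tested on simulated peaks. The named genes were all 5 members, the genes of 5 pathway lists with an INTS13 boundary peak in control or depleted cells (up to 6 a list), the 2 genes most like each member and those next in rank. The other gene most like MTREX is not reported here. Members and lists were chosen with earlier results of these data known.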

Additional observations from a re-analysis of the deposited data

How the results depend on the processing

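Each list stands for both replicates of its group, so none could be left out. No paired analysis was possible because each group had a single list. All 5 genes stayed gained when any base of a peak counted, with both INTS13 lists at 31233 peaks and at a −log10 q of at least 3. With a window of 500 bp 4 stayed gained (TASOR had no peak), with 2500 bp 4 (IP6K1 was kept, through the control peaks beyond its far end), and at a −log10 q of at least 10 only 2 (IP6K1 and MTREX). Over all genes the gained numbered 1901 with 500 bp, 4929 with 2500 bp, 824 at equal length, 1377 at a −log10 q of at least 3 and 23 at 10. The kept numbered 469, 1315, 482 and 28 with 500 bp, 2500 bp and a −log10 q of at least 3 and 10, and the lost 404 at equal length and 38 at a −log10 q of at least 10. Members with an INTS13 control peak over the gene fell to 0 without flanks, at a −log10 q of at least 3 and with all lists at 15639 peaks, and those with INTS13 in starvation to 0 without flanks. With all lists at 15639 peaks 2 members had HDGF in starvation. At the gained start, HDGF within 1 kb or overlapping the gained peak was found at 0 members in control cells and 1 in starvation.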
